A study of Homo sapiens with 6 samples.

Results

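The genes described here are 10 members of the Notch pathway, 3 receptors (NOTCH1, NOTCH2 and NOTCH3), 4 ligands (JAG1, JAG2, DLL1 and DLL3) and 3 target or feedback genes (HES1, HEY1 and NRARP), out of 18404 genes named on the arrays. They were chosen by gene symbol, and 11 of the 32319 probe sets carry one of these symbols. A probe set is a group of probes summarised into 1 value. The arrays held RNA of SNU-398 cells, an established line of human liver cancer (hepatocellular carcinoma). In 3 biological replicates the cells had received a short hairpin RNA (shRNA) that targets SALL4, which encodes a stem cell and fetal liver factor with zinc fingers, and in 3 they had received a scrambled shRNA. All 6 cultures were grown in RPMI medium with fetal bovine serum. The labels name 1 line and no further SALL4 shRNA or rescue, so effects of reduced SALL4 and side effects of this hairpin cannot be told apart.

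Notch receptors are cut at the cell surface after a Jagged or Delta-like ligand on a neighbouring cell binds them. The freed intracellular part enters the nucleus, joins the DNA-binding protein RBPJ and coactivators of the Mastermind family, and switches on a small set of genes, of which HES1, HEY1 and NRARP are well-known examples. In the liver the pathway is best known for its part in forming bile ducts, where JAG1 and NOTCH2 are the principal ligand and receptor.

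The values are normalised intensities on a linear scale whose lowest deposited value is 10, and the array medians lay between 47.85 and 51.69. SALL4 fell to intensities of 120.65, 118.73 and 117.33 in the SALL4 shRNA arrays, against 283.49, 264.25 and 335.43 in the scrambled arrays, which is 40.6% of the scrambled level. The limma adjusted p of SALL4 was 0.0112, and it was 0.0946 in a fit without a filter on dim genes, where 0 genes were called. Along the second principal component, 19.8% of the variance, SALL4 shRNA replicate 2 (-23.4) and scrambled replicate 3 (-19.3) stood apart from the others (1.77 to 16.9). Without these arrays together the adjusted p of SALL4 was 0.0724. Of 16 liver markers measured, 8 passed the filter on dim genes, and the list summed to 668.6 to 788.9 in SALL4 shRNA arrays and 710.5 to 761.9 in scrambled arrays. GPC3 was among the 8 (118.56 to 157.17 in SALL4 shRNA arrays and 133.72 to 165.23 in scrambled arrays), whereas ALB (11.76 to 12.53 in SALL4 shRNA arrays and 10.13 to 12.78 in scrambled arrays) and AFP (10.62 to 17.76 and 14.21 to 15.4) were near the lowest value. Of 9 blood cell markers 4 passed that filter, among them CD68 (99.02 to 190.55 in SALL4 shRNA arrays and 95.89 to 128.85 in scrambled arrays), while PTPRC and LYZ were at 10 on every array. Of 11 endothelial markers 2 passed it. Of 7 bile duct markers measured 5 passed it. The bile duct list summed to 1216.5 to 1456.5 in SALL4 shRNA arrays and 1288.5 to 1511.7 in scrambled arrays. EPCAM was among the 5 (802.75 to 1023.02 in SALL4 shRNA arrays and 874.06 to 1138.38 in scrambled arrays). CFTR was near the lowest value (10 to 12.11 and 10 to 10.55). Of 10 fibroblast markers, 8 passed that filter; their list summed to 1970 to 2576 in SALL4 shRNA arrays and 2415 to 2548 in scrambled arrays. Of those 8, the proteoglycan gene DCN fell (limma adjusted p = 0.0218) and 7 did not pass; their part in the results was not tested.

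The comparison asked whether transcripts of these Notch genes differ between SALL4 shRNA cells and scrambled shRNA cells. None of the 10 passed the test in either direction. Differences were tested with limma over all 13711 genes whose mean log2 intensity was at least 5 in at least 1 group, with a threshold of 0.05 after Benjamini-Hochberg adjustment. All 10 members were in that fit, and the adjusted p-values of the 10 ran from 0.271 to 0.988. Over all genes of the fit 1.6% were called, so a count of 0 among 10 genes is close to the background. At an unadjusted limma p under 0.05 there was 1 member, DLL3, where the share over all genes was 16.9%, and 8.92% for lower genes alone. The 10 log2 fold changes lay between -0.43 and 0.22, with a median of -0.01 beside 0.02 over all genes, and 4 were positive and 6 negative.

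The 95% intervals of all 10 members lay within a 2-fold change either way, from a lower bound of 0.559 times the scrambled level (DLL3) to an upper bound of 1.61 times (JAG1). These intervals are not adjusted for the number of genes, and they rest on a spread that limma shares between genes. For some members the standard error from their own spread was larger, as in JAG1 (0.37 against 0.27 in the test). For others it was smaller, as in NOTCH2 (0.013 against 0.17). An interval from the spread of JAG1 alone would be wider than the one given. On simulated arrays for this comparison, with 13626 genes in the fit, limma recovered 0 of 50 genes shifted by 0.5 on the log2 scale, 39% of those shifted by 1 and 96% of those shifted by 2. No shift as small as those of the Notch genes was simulated. Shifted genes were taken only from brighter genes, above a bound that NOTCH1, JAG1, DLL1, DLL3, HEY1 and NRARP did not reach. The simulation called 88 genes, against 220 in the data, so it gives no exact detection limit for these members. Failing the test with 3 arrays a group therefore does not show that a member was unchanged. In bulk RNA, fewer cells expressing a gene and less RNA per cell cannot be told apart.

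**Figure D1:**
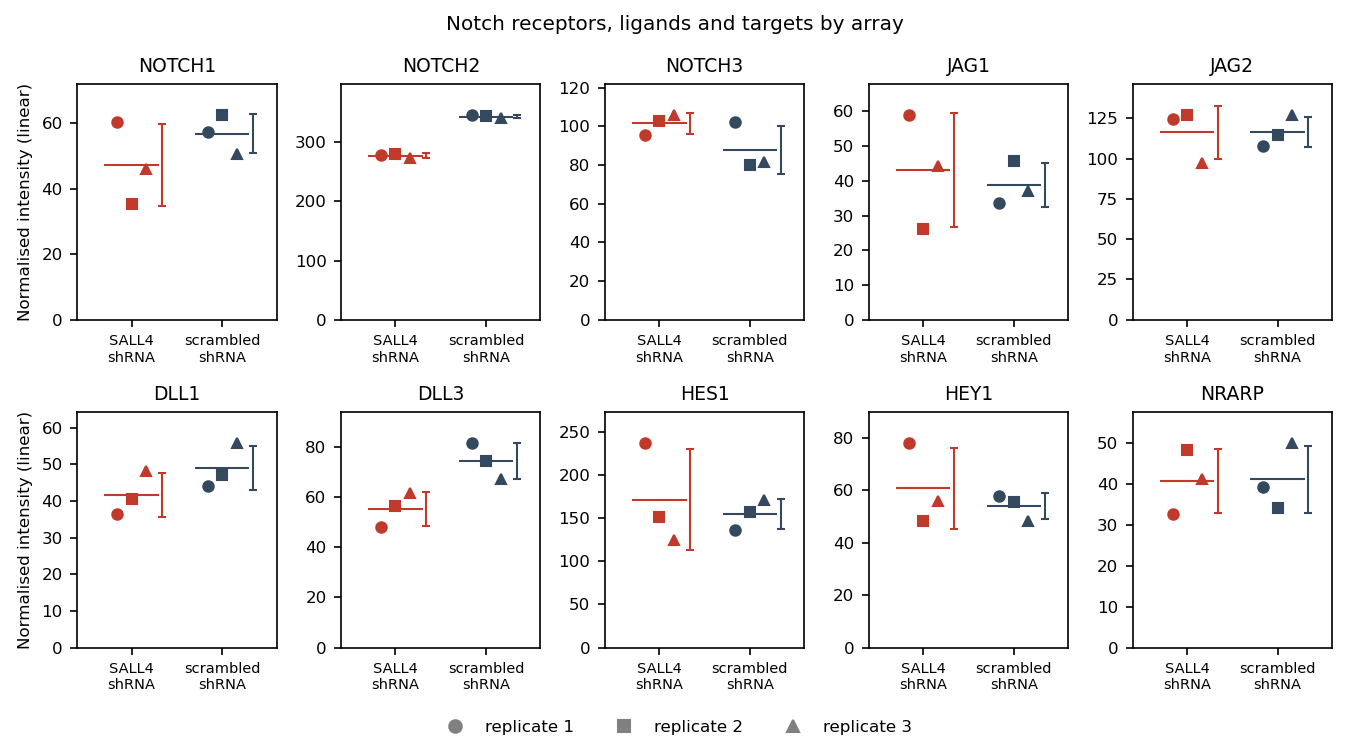
Normalised intensity (linear axis from 0) of the 10 Notch genes on each array, by the probe set that carries the gene's symbol alone. Points are arrays, horizontal lines are means and bars are the SD of 3 arrays; the groups are separate in NOTCH2 and DLL3 and overlap in the other 8 genes.

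Among the receptors, NOTCH2 was the most uniform measurement. Its own probe set read 278.36, 280.11 and 272.9 in the SALL4 shRNA arrays, against 345.6, 343.9 and 340.13 in the scrambled arrays. Every SALL4 shRNA array was below every scrambled array, by an amount larger than the spread within either group. The means were 277 ± 3.76 in SALL4 shRNA arrays and 343 ± 2.80 in scrambled arrays (SD, n = 3 each), so that the level was 80.7% of the scrambled one. The log2 fold change was -0.31 with a 95% interval of -0.68 to 0.07 and a limma adjusted p of 0.396. An exact two-sided permutation test of the 6 arrays gave p = 0.1, the lowest value possible with 3 a group.

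Limma shares the spread between genes, so the error used in the test is not that of NOTCH2 alone. The standard deviation of NOTCH2 within groups was 0.016 on the log2 scale, against a median of 0.246 over all genes, and 0 of the 13711 genes had a smaller one. The standard error (SE) from its own spread was 0.013, and the SE used in the test was 0.17. A spread estimated from so few arrays is imprecise, and the smallest among 13711 genes may be low by chance. The SE from its own spread is therefore no reliable measure of the precision of NOTCH2. In the fit without a filter on dim genes, where less of the spread is shared, the limma p of NOTCH2 was 0.00147 before adjustment and 0.116 after it.

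A second probe set is annotated to NOTCH2 together with NOTCH2NLA and NOTCH2NLB, partial copies of the gene that arose by duplication in the human lineage, and it did not follow the first. It read 328.85, 343.97 and 216.39 in the SALL4 shRNA arrays, against 252.15, 245.98 and 280.03 in the scrambled arrays. Here 2 SALL4 shRNA arrays were above all scrambled arrays and the third was below them. In a limma fit of all probe sets, which called 0.0492% of them and none of the 11 of the Notch genes, its log2 fold change was 0.16 ± 0.22 (SE) and its adjusted p 0.77. Signal from NOTCH2 and from its copies cannot be told apart in this probe set, so the level of NOTCH2 is uncertain to that degree.

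**Figure D2:**
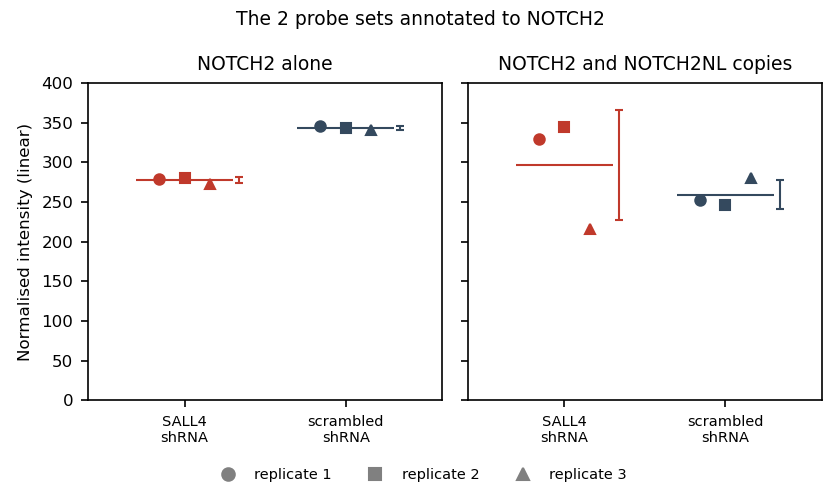
Normalised intensity (linear axis from 0) of the probe set annotated to NOTCH2 alone (left) and of the one annotated to NOTCH2, NOTCH2NLA and NOTCH2NLB (right), with means and SD of 3 arrays. The left probe set separates the groups at 277 ± 3.76 in SALL4 shRNA arrays and 343 ± 2.80 in scrambled arrays, and the right one does not.

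The other receptors had overlapping groups. NOTCH1, the receptor of T cell and vascular development, read 60.38, 35.4 and 46.13 with the SALL4 shRNA, against 57.36, 62.42 and 50.61 with the scrambled shRNA. Its lowest value was in SALL4 shRNA replicate 2, and replicate 1 of the same group lay within the scrambled range. The log2 fold change of -0.29 ± 0.22 (SE; limma adjusted p = 0.543) was -0.10 without SALL4 shRNA replicate 2 and -0.49 without SALL4 shRNA replicate 1, with unadjusted limma p-values of 0.649 and 0.0509. NOTCH3, known for its part in vascular smooth muscle, read 95.76, 103.08 and 105.83 with the SALL4 shRNA, against 102.24, 79.9 and 81.61 with the scrambled shRNA. Its groups overlapped through scrambled replicate 1 alone, and the log2 fold change was 0.22 ± 0.19 (adjusted p = 0.599). It was 0.33 without scrambled replicate 1 and between 0.15 and 0.26 without any other array.

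Among the ligands, DLL3 was the member with the lowest p. DLL3 is a divergent Delta-like protein that lies mostly inside the cell and is known to inhibit Notch signalling rather than to activate receptors on neighbours. It read 48.02, 56.25 and 61.51 in the SALL4 shRNA arrays, against 81.44, 74.27 and 67.28 in the scrambled arrays. The groups did not overlap, although the highest SALL4 shRNA array and the lowest scrambled array were close. The level was 74.2% of the scrambled one, a log2 fold change of -0.43 ± 0.19 (SE), with a limma p of 0.0408 before and 0.271 after adjustment. The log2 fold change ran from -0.51 to -0.33 when 1 array at a time was left out. Non-overlapping groups were seen in 22.4% of all genes of the fit, and in 2 of the 10 Notch genes, DLL3 and NOTCH2, both lower with the SALL4 shRNA; non-overlapping groups in that direction made up 11% of all genes.

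The 3 genes of the fit with profiles closest to that of DLL3 over the 6 arrays were GMIP, COL11A1 and LENG1, with root mean square differences of 0.048, 0.058 and 0.065 on the log2 scale after each gene was centred on its mean. None of these 3 passed the test (limma adjusted p 0.216 to 0.329). COL11A1, a fibrillar collagen gene, read 505.45, 552.64 and 643.2 with the SALL4 shRNA, against 821.2, 827.37 and 717.02 with the scrambled shRNA.

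DLL1, a Delta-like ligand that does activate receptors on neighbouring cells, read 36.32, 40.64 and 48.14 with the SALL4 shRNA, against 44.2, 47.16 and 55.82 with the scrambled shRNA. The groups overlapped, and the log2 fold change was -0.24 ± 0.19 (SE; limma adjusted p = 0.578). It ran from -0.35 without SALL4 shRNA replicate 3 to -0.14 without SALL4 shRNA replicate 1 or scrambled replicate 3. JAG2, a Jagged ligand, read 124.33, 126.98 and 97.61 with the SALL4 shRNA, against 107.83, 114.94 and 126.86 with the scrambled shRNA. Its group means were nearly equal, with a log2 fold change of -0.01 and a 95% interval of -0.42 to 0.40.

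JAG1 was the most variable of the 10 genes. It read 58.9, 26.26 and 44.27 in the SALL4 shRNA arrays, against 33.51, 45.75 and 36.98 in the scrambled arrays. The SALL4 shRNA group held both its highest and its lowest value. Between the groups the log2 fold change was 0.09 ± 0.27 (SE; limma adjusted p = 0.902), and it was -0.17 without SALL4 shRNA replicate 1 and 0.41 without SALL4 shRNA replicate 2.

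**Figure D3:**
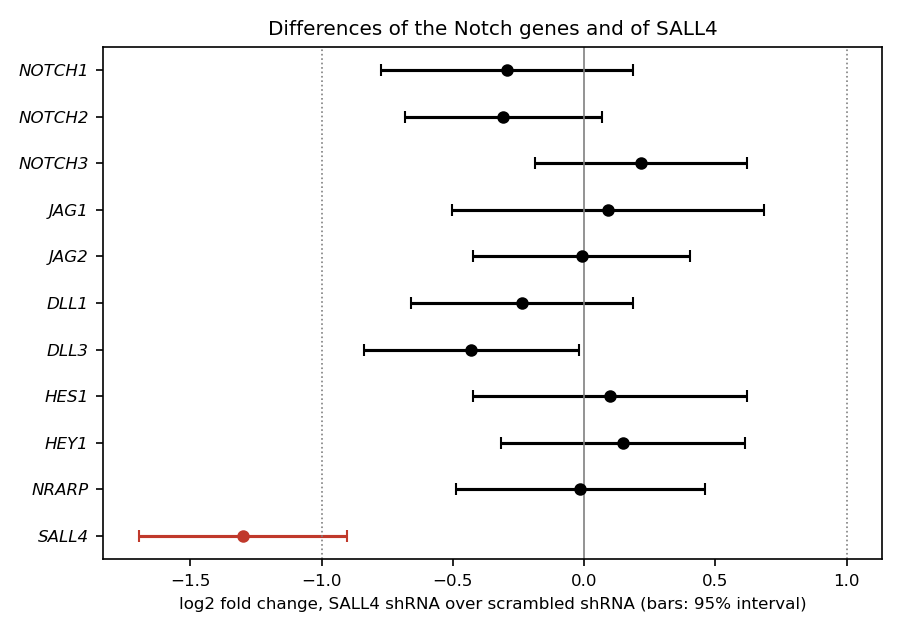
Log2 fold change, SALL4 shRNA over scrambled shRNA, of the 10 Notch genes and of SALL4, with 95% intervals from limma; dotted lines mark a 2-fold change. The intervals of 9 Notch genes include 0 and that of DLL3 ends at -0.02, while that of SALL4 runs from -1.70 to -0.90.

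Transcripts of target genes are commonly read as a sign of receptor activity, which was not measured here. In these arrays the groups of HES1, HEY1 and NRARP overlapped in every case. HES1 encodes a basic helix-loop-helix repressor that Notch switches on directly. The 250 bases before its gene start (RefSeq, GRCh38.p14, chr3:194135898-194136147, plus strand) are shown because they carry the RBPJ core letters TGGGAA, marked in capitals, at 2 places, which begin 84 and 70 bases before the start:
HES1: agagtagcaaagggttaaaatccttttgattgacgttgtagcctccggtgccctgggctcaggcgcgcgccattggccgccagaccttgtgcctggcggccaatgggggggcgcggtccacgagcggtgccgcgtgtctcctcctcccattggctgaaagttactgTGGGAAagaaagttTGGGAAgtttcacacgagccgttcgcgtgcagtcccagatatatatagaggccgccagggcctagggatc
Of the 10 members, 7 had a promoter in the RefSeq table, and HES1 was the 1 with a match on either strand. Over all 35116 promoters of the same length, 20.8% held the letters at least once and 2.9% at least 2 times. A match describes these letters and not a bound site, and no match says nothing of RBPJ at the other genes.

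HES1 read 237.48, 151.45 and 125.17 with the SALL4 shRNA, against 136.17, 157.52 and 170.74 with the scrambled shRNA. SALL4 shRNA replicate 1 was the highest of the 6 arrays and replicate 3 of the same group the lowest. Its log2 fold change was 0.10 with a 95% interval of -0.42 to 0.62 (limma adjusted p = 0.88). HEY1, a related repressor, read 78.06, 48.28 and 55.94 with the SALL4 shRNA, against 57.87, 55.4 and 48.33 with the scrambled shRNA. Apart from SALL4 shRNA replicate 1 its values lay close together, and the log2 fold change was 0.15 ± 0.21 (SE; adjusted p = 0.78).

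NRARP encodes a small ankyrin repeat protein that is induced by Notch and in turn dampens the nuclear Notch complex. It read 32.58, 48.32 and 41.28 with the SALL4 shRNA, against 39.28, 34.06 and 50.05 with the scrambled shRNA. Its groups covered nearly the same range, with a log2 fold change of -0.01 and a 95% interval of -0.49 to 0.46. This member, JAG1 and DLL1 were near the filter, which lies at an intensity of 32, although none of their values was at the lowest deposited value. Changes of dim genes can be understated, which was not tested here.

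Several of the 10 genes had 1 array far from the rest. In SALL4 shRNA replicate 1, JAG1, HES1 and HEY1 were each at their highest, at 0.62, 0.62 and 0.54 above the scrambled mean on the log2 scale, while DLL1, DLL3 and NRARP were each at their lowest. Over all genes of the fit, 18.6% were at their highest and 12.6% at their lowest on this array. On it 11.3% lay more than 0.5 above the scrambled mean and 9.19% more than 0.5 below it. Without that array the log2 fold changes of JAG1, HES1 and HEY1 were -0.17, -0.16 and -0.05. All 3 thus turned sign without it, as did NRARP (0.14), and JAG1 also did without scrambled replicate 1 (-0.0078). Without SALL4 shRNA replicate 2 and scrambled replicate 3 together, the arrays apart on the second component, the log2 fold changes were 0.38 for JAG1, 0.24 for HES1, 0.22 for HEY1, -0.18 for NOTCH1, -0.13 for DLL1, 0.16 for NOTCH3, -0.32 for NOTCH2, -0.52 for DLL3, -0.02 for JAG2 and 0.0038 for NRARP. No member passed in that fit, where the lowest adjusted p was 0.345 (DLL3).

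**Figure D4:**
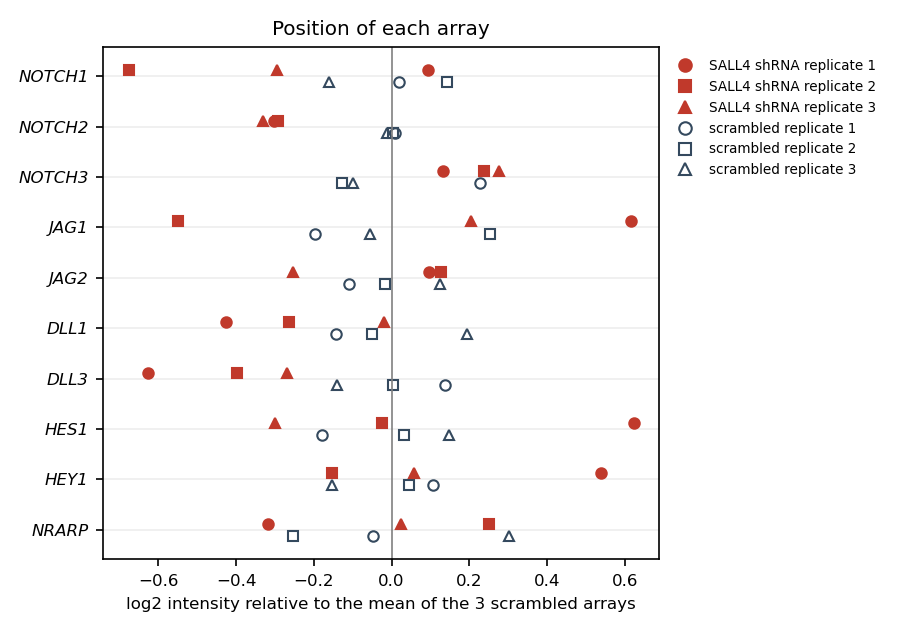
Log2 intensity of each Notch gene on each array relative to the mean of the 3 scrambled arrays (filled symbols, SALL4 shRNA; open symbols, scrambled shRNA; shapes, replicates). SALL4 shRNA replicate 1 lies at 0.62, 0.62 and 0.54 in JAG1, HES1 and HEY1, and the 3 SALL4 shRNA arrays lie together in NOTCH2.

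Beyond the 10 members, 91 further genes of the pathway were listed by role, of which 82 were measured and 77 were in the fit. One of the 77, POGLUT1, fell and 0 rose, where 1.06% of all genes were called lower and 0.547% higher. POGLUT1 adds O-linked glucose to the epidermal growth factor-like repeats of Notch receptors. It read 71.38, 49.69 and 54.05 in the SALL4 shRNA arrays, against 115.86, 149.96 and 131.32 in the scrambled arrays, with no overlap. The means were 58.4 ± 11.5 in SALL4 shRNA arrays and 132 ± 17.1 in scrambled arrays (SD, n = 3 each). The log2 fold change was -1.19 ± 0.20 (SE), and limma gave an adjusted p of 0.0218. Without SALL4 shRNA replicate 1 it still passed (0.0307); leaving out any other array gave an adjusted p from 0.0511 to 0.0785, and leaving out SALL4 shRNA replicate 2 and scrambled replicate 3 together gave 0.109. It was 0.112 with no filter on dim genes. The log2 fold change ran from -1.34 without SALL4 shRNA replicate 1 to -1.001 on log2(value + 16), and was between these in the other alternatives tried. The other 10 genes of receptor glycosylation did not pass.

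Of the 77, 10 had an unadjusted limma p under 0.05 (16.9% over all genes), 3 higher and 7 lower, and 14 had groups that did not overlap (22.4% over all genes). Their median log2 fold change was 0.01, beside 0.02 over all genes.

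Ubiquitin and endocytosis regulators held 4 of the 10, 3 lower and 1 higher, and 0 of the 17 in this list passed. Of the 17 log2 fold changes, 10 were positive and 7 negative. DTX2, a ubiquitin ligase of the Deltex family, read 66.61, 43.99 and 34.16 with the SALL4 shRNA, against 80.78, 83.62 and 72.55 with the scrambled shRNA (log2 fold change -0.76 ± 0.24, SE; limma adjusted p = 0.125). NUMB, an endocytic adaptor that antagonises Notch, read 398.63, 374.63 and 354.51 with the SALL4 shRNA, against 488.56, 567.25 and 619.73 with the scrambled shRNA (-0.57 ± 0.18, adjusted p = 0.136). In both genes every SALL4 shRNA array was below every scrambled array. Groups did not overlap in 4 of the 17 genes of this list, 2 higher and 2 lower, beside 22.4% over all genes. FBXW7, the ubiquitin ligase subunit that marks the intracellular part for degradation, overlapped between groups at 129 ± 56.4 in SALL4 shRNA arrays and 201 ± 27.0 in scrambled arrays (adjusted p = 0.212). The higher gene was DTX3, also of the Deltex family, at 0.47 ± 0.20 with non-overlapping groups (limma adjusted p = 0.262).

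In the nucleus, 0 of 9 genes of the RBPJ complex and its coactivators and 0 of 16 corepressor genes passed. RBPJ itself was at 629 ± 93.8 in SALL4 shRNA arrays and 529 ± 104 in scrambled arrays (SD, n = 3 each), a log2 fold change of 0.26 ± 0.21 (SE). The acetyltransferase gene KAT2A was at 0.55 ± 0.20 and CCNC, the cyclin partner of a kinase that phosphorylates the intracellular part, at -0.51 ± 0.21, both with non-overlapping groups (limma adjusted p = 0.189 and 0.249). They were the 2 of the 9 genes with such groups, where the share over all genes was 22.4%. Among corepressors the deacetylase gene HDAC1 was at -0.77 ± 0.19 (adjusted p = 0.0642). The Groucho family genes TLE1 and TLE4 were at -0.47 ± 0.23 and 0.35 ± 0.17, opposite in sign. TLE2, TLE3 and TLE5 of the same family were at 0.35 ± 0.18, 0.37 ± 0.21 and -0.19 ± 0.20. Groups did not overlap in TLE2, TLE3 and TLE4, all higher with the SALL4 shRNA, and overlapped in TLE1 and TLE5. The limma adjusted p of TLE2, TLE3 and TLE4 was 0.361, 0.398 and 0.334. Of all 16 corepressor genes, 4 had groups that did not overlap, these 3 and HDAC1, which was lower. Non-overlapping groups made up 22.4% of all genes, and 11.4% in the higher direction alone.

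Of 11 further genes listed here as targets 0 passed. HES6, which is known to antagonise HES1, read 86.02, 69.59 and 70.68 with the SALL4 shRNA, against 100.23, 101.46 and 117.2 with the scrambled shRNA, a log2 fold change of -0.50 ± 0.19 (SE; limma adjusted p = 0.2). HEYL, a relative of HEY1, read 67.38, 61.23 and 64.25 with the SALL4 shRNA, against 45, 50.64 and 48.08 with the scrambled shRNA, a log2 fold change of 0.42 ± 0.18 (adjusted p = 0.249). Neither gene overlapped between groups, and they differed in opposite directions. They were the 2 of the 11 genes without overlap, beside 22.4% over all genes. MYC was at -0.49 ± 0.23 (adjusted p = 0.313).

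At the membrane, 0 of 8 genes of receptor cleavage passed, and their log2 fold changes stayed between -0.13 and 0.31. APH1B, a subunit of the gamma-secretase that releases the intracellular part, was at 0.31 ± 0.22 (SE), its partner NCSTN at -0.13 ± 0.21 and the convertase gene FURIN at 0.13 ± 0.20. Of 10 other receptor and ligand genes, 5 were in the fit and 0 passed, with DLL4, DNER, CNTN1, CNTN6 and MFAP5 below the filter. The secreted protein gene EGFL7 was at -0.41 ± 0.24 and the noncanonical ligand genes DLK2 and DLK1 at 0.18 ± 0.18 and -0.12 ± 0.23. NOTCH4, the Notch receptor gene outside the 10 members, was at -0.01 ± 0.18. Its means were 87.2 ± 6.74 in SALL4 shRNA arrays and 87.7 ± 3.29 in scrambled arrays (SD, n = 3 each).

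**Figure D5:**
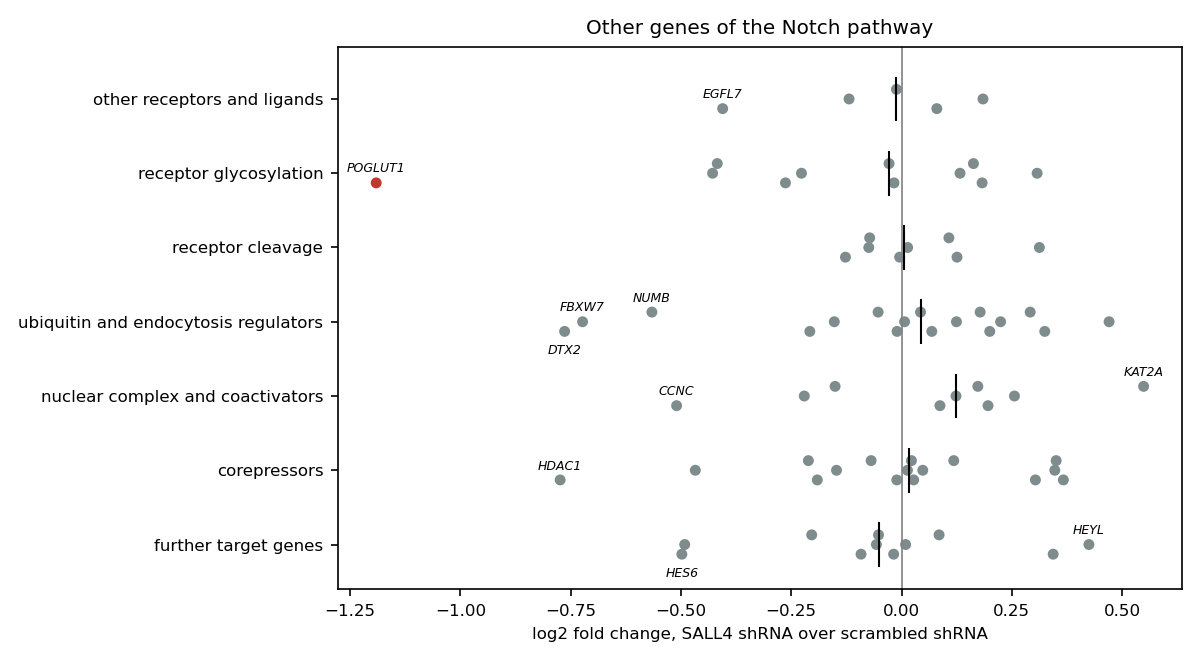
Log2 fold change, SALL4 shRNA over scrambled shRNA, of the 77 other Notch pathway genes in the fit, by role; each point is a gene, black bars are list medians and red marks an adjusted p under 0.05. POGLUT1 at -1.19 is the 1 red point.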

How the data were processed

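Total RNA of 6 SNU-398 cultures was labelled and hybridised to Affymetrix arrays. The authors deposited normalised intensity values on a linear scale. RMA is named per the submitters' processing notes; its version, the step back to a linear scale and the lowest value of 10 are not explained in the sources used here. Deposited intensities were converted to log2 here. Names of probe sets come from the platform annotation (19158 with 1 gene symbol, 1388 with several, 11773 not listed), with symbols updated through Entrez identifiers. A gene with several probe sets was represented by its brightest one on average.

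Groups were compared with lmFit and eBayes of limma 3.58.1 (R 4.3.3; two-sided) on 13711 genes. These reached a mean of 5 or more (log2 intensity) in at least 1 group. P-values had Benjamini-Hochberg adjustment over all of them. The words rose, fell and passed refer to this fit. Exact permutation tests used all 20 splits of the arrays. The fit was tested on simulated data, with 200 changed genes. Alternatives covered the filter, the probe sets used, the variance model, normalisation, the log offset, the replicate block and the arrays left out.

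The members and lists were chosen with earlier results of these data known. Genes named are the 10 members, SALL4, the genes of each pathway list that passed or otherwise up to 3 with the lowest p, and the 3 profiles closest to the member with the lowest p. DTX3, TLE2, TLE3 and TLE5 were added to show the directions within their list or family, and NOTCH4 because it is a Notch receptor. The number of arrays limits the precision. The labels call the replicates biological.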

Additional observations from a re-analysis of the deposited data

How the results depend on the processing

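The count of Notch members called by limma was 0 in the fit reported and in all 17 alternatives, with 0 to 2 members at an unadjusted p under 0.05. Over all genes 220 were called in the fit reported, against 0 with no filter (2864 at an unadjusted p under 0.05), 40 with only genes at the lowest value on all arrays left out, 10 with every probe set on its own, 500 with trend and robust settings, 445 on log2(value + 16), 41 with the replicate block, 39 to 103 without 1 array, and 15 without scrambled replicate 3 and SALL4 shRNA replicate 2 together. The other pathway genes called numbered 1 in the fit reported, 2 with trend and robust settings and on log2(value + 16) (POGLUT1 and HDAC1), 0 to 1 without 1 array, and 0 with no filter, with only genes at the lowest value left out, with every probe set on its own, with the replicate block and without those 2 arrays together. SALL4 was at -1.30 with no filter (limma adjusted p = 0.0946) and with every probe set on its own (0.0535), and at -1.20 without the 2 arrays together (0.0724). Leaving out arrays also leaves fewer degrees of freedom; the cause of the other shifts was not tested.

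NOTCH1, NOTCH2, NOTCH3, DLL1 and DLL3 kept their sign in all 17 alternatives. Small differences turned sign: NRARP was at 0.0011 after quantile normalisation, 0.032 with arrays centred on their medians and 0.0038 without the 2 arrays together, and JAG2 at 0.036 with arrays centred. Without 1 array the log2 fold change ran from -0.17 to 0.41 for JAG1, -0.16 to 0.30 for HES1, -0.048 to 0.30 for HEY1, -0.078 to 0.11 for JAG2 and -0.15 to 0.14 for NRARP. Replicate numbers are shared between the groups, and the deviations of same-numbered arrays correlated at 0.003, -0.083 and -0.039 over genes. The labels do not say whether same-numbered cultures were handled together, and these few correlations cannot settle it. With the replicate block no member was called, as in the fit reported.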
